A study of Mus musculus with 229 samples.

Results

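Cells with markers of oligodendrocyte precursor cells (OPCs) that were outside mitosis made up 1221 of the 6054 cells (20.2%, 95% Clopper-Pearson interval 19.2 to 21.2%) of a mouse tumour library labelled GBM and dpi35. GBM is taken here as the submitters' name for the tumour, and the labels do not expand dpi. A cell was a member when at least 3 of 7 OPC genes (Pdgfra, Cspg4, Olig1, Olig2, Sox10, Matn4 and C1ql1) each had a UMI, a molecule counted once through its barcode. Its UMIs for the microglial genes C1qa, C1qb and C1qc had to sum to under 20 per 10000. No more than 2 of the 8 cycling genes Top2a, Mki67, Cenpf, Cenpa, Ube2c, Birc5, Ccnb1 and Cdk1 could be detected. No more than 2 of the 7 mature oligodendrocyte genes Mog, Mag, Klk6, Cldn11, Mobp, Ermn and Mal could reach 2 UMIs. Of 2621 cells with at least 3 OPC genes, 2368 had the low C1q sum, 1327 of these also met the cycling limit, and 1221 met all conditions. The members are called OPC-like cells, since only these genes chose them. Which of them carry the tumour's alterations and which may be OPCs of the host brain was not tested.

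The study set single cells of such tumours beside progenitor cells of the developing mouse cortex. OPC-like cells came from the 10x library of the tumour at dpi35. They were set against the other 4833 cells of that library, against 993 cells of the Drop-seq tumour library labelled GBM and dpi25, and against 726 cells of a Drop-seq library of PDGFRa-GFP cortex at postnatal days 1 to 3, chosen in each by the same conditions. Both tumour samples were digested with TrypLE and collagenase and their red blood cells lysed, with no sort given, and no allele, driver or transplanted line is stated for them. The cortex cells carried a PDGFRa-GFP reporter, in which GFP marks cells that use the Pdgfra promoter, on a genotype otherwise labelled normal, and live cells were taken by a GFP gate that left out cells stained with 7-AAD. Open chromatin came from PDGFRa-GFP cells of embryonic stage E14.5 and of postnatal day 5, with 1 peak list pooled over both. Each cell set had 1 library, the animals behind a library are not named, and so no difference has a replicate check and none was tested. Intervals are 95% intervals that cover counting error only.

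OPCs are dividing glial cells that spread through the brain and produce the oligodendrocytes that make myelin. They depend on signals through the receptor for platelet-derived growth factor, Pdgfra, and leave the cell cycle as they pass through a short committed stage, at which Gpr17, Bcas1, Enpp6 and Bmp4 are used. Gliomas often contain cells with the transcription factors Olig2 and Sox10 and with Pdgfra, and loss or silencing of the CDK inhibitor locus Cdkn2a and Cdkn2b is a frequent change in them.

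The OPC-like cells had a median of 5530 UMIs and 2086 genes, against 7037 UMIs and 2240 genes in all other cells, and mitochondrial genes took 8.53% of their UMIs against 6.76%. Scrublet called 124 doublets in the library, of which 3 were OPC-like. The share of OPC-like cells depended on depth. After each cell was thinned to 2000 UMIs, 15.3% of the dpi35 cells met the conditions (14.4 to 16.2%), against 16.9% at dpi25 (15.5 to 18.4%) and 24.6% in the sorted cortex library (22.5 to 26.8%). At dpi25, 2313 cells were too shallow for this, and in the cortex library 1583. No pair of the 3 libraries shared a cell barcode, and 10x and Drop-seq barcodes differ in length.

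The genes of the rule describe how the members were chosen and support nothing further. Levels are UMIs summed over the cells of a set, scaled to a common total (CPM). Pdgfra, the receptor, reached 186 CPM in OPC-like cells and 55.1 CPM in all other cells, and Cspg4, the NG2 proteoglycan of OPC membranes, 123 and 41.9 CPM. The transcription factors of the lineage stood at 1698 and 472 CPM for Olig1, 372 and 121 CPM for Olig2, and 255 and 64 CPM for Sox10. Matn4, a matrix protein, had 154 and 34.8 CPM, and C1ql1, a secreted C1q-like protein, 153 and 31.5 CPM. All 7 were thus higher in OPC-like cells, by log2 ratios of 1.55 to 2.28. A UMI of Olig1 was found in 99.2% of OPC-like cells and 61.0% of all other cells, and one of Pdgfra in 63.5% and 22.8%.

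Members just inside the limits differed from cells just outside them as follows. The 250 members with 3 OPC genes had 74.2 CPM of Pdgfra and 456 CPM of Cldn5, a tight junction gene of endothelial cells. The 198 cells with 2 OPC genes that met the other conditions had 24.9 CPM of Pdgfra and 1341 CPM of Cldn5. With 4 OPC genes Cldn5 was at 6.53 CPM, so its level among members lay mostly with those at the lower limit. The 307 members with 2 cycling genes had 191 CPM of Pdgfra and 256 CPM of Cnp, a myelin enzyme, against 210 and 154 CPM in the 182 cells with 3. The 100 members with 2 mature oligodendrocyte genes had 57.2 CPM of Pdgfra and 2386 CPM of Cnp, against 24.5 and 4409 CPM in the 43 cells with 3. The 419 members with 1 such gene had 172 CPM of Pdgfra and 366 CPM of Cnp. The levels thus changed within the members as well as across this last limit. Whether the line separates types was not tested. Near the C1q limit there were few cells, 15 members between 15 and 20 per 10000 and 5 cells between 20 and 25.

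The further OPC markers outside the rule were nearly all higher in OPC-like cells than in all other cells. Of 11061 genes with at least 200 summed UMIs, 1483 were at least 2-fold higher in OPC-like cells (13.4%) and 1726 at least 2-fold lower (15.6%), with a median log2 ratio of 0.24. A TMM factor moved all log2 ratios down by 0.28, and higher genes then made up 31.6% of those past 2-fold, against 46.2% without it. Since cells were divided by the genes of the rule, these counts describe that division and nothing is read from them. All 20 listed OPC markers were compared, and 19 were at least 2-fold higher, with a median of 1.88. Among the proteoglycans and their partners, Cspg5 had 724 CPM in OPC-like cells and 211 CPM in all other cells, and Ptprz1, a receptor phosphatase that binds the matrix, 838 and 224 CPM (log2 ratio 1.91, 1.86 to 1.95). Vcan, the versican core protein, had 119 and 32.7 CPM. Xylt1, which starts the sugar chains of proteoglycans, had 198 and 48.9 CPM. Among the transcription factors, Sox6, which keeps OPCs undifferentiated, had 200 and 49.8 CPM, and Nkx2-2, which acts at the onset of differentiation, 70.2 and 18.4 CPM. Lhfpl3, a membrane protein used as an OPC marker, had 393 and 112 CPM, and Rlbp1, a retinoid-binding protein, 62.1 and 18.1 CPM. Serpine2, a secreted protease inhibitor, was the 1 marker below 2-fold, at 699 and 399 CPM (log2 ratio 0.81).

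The DNA before the starts of 3 of the genes higher in OPC-like cells is shown. They were picked from genes whose start region overlapped an open interval of PDGFRa-GFP cells and held a motif marked below. Both traits were therefore conditions of being shown. Vcan and Col11a1, also higher, had an open start region with neither motif. Each run is the 250 bases before the start, read 5′ to 3′ on the strand of the gene, from RefSeq on GRCm38.p6 (mm10). Capitals mark the letters CAGCTG, a form of the E-box that Olig2 and other basic helix-loop-helix factors bind, and ACAAAG or its reverse complement CTTTGT, a core that Sox factors bind. The sequences are those of Lhfpl3 at chr5:22745804-22746053 on the plus strand, Rlbp1 at chr7:79387028-79387277 on the minus strand and Tnr, the extracellular matrix protein tenascin-R, at chr1:159523519-159523768 on the plus strand.
Lhfpl3: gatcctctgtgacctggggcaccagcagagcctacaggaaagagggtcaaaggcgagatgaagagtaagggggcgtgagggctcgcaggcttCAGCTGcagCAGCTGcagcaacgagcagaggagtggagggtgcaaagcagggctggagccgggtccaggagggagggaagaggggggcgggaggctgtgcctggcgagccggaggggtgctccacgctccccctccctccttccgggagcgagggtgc
Rlbp1: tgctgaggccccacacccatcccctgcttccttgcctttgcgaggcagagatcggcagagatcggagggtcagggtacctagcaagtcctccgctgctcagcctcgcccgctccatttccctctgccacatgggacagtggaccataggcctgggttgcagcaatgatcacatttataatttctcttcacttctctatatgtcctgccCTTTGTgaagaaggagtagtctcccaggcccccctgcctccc
Tnr: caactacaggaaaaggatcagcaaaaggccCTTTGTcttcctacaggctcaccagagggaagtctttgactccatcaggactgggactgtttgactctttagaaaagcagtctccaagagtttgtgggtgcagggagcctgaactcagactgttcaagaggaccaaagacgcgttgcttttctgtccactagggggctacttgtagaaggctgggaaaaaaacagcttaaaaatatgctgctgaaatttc

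For Lhfpl3 and Rlbp1 all 250 bases lay inside an open interval, and for Tnr 44 of them did. The Lhfpl3 sequence held 2 CAGCTG and no ACAAAG, and the Rlbp1 and Tnr sequences each held 1 ACAAAG on the opposite strand. Such a match is a description of letters. Over all 32851 RefSeq windows, 13% held CAGCTG and 16.5% held ACAAAG on either strand in these 250 bases, and the motifs cannot overlap each other. Of the 14 listed OPC markers with a window, 5 held CAGCTG and 6 held ACAAAG, against 14% and 14.6% of the 8495 genes compared that had a window. Of the 8 listed microglia genes with a window, 3 held CAGCTG and 3 held ACAAAG. Genes with several windows have more chances of a match.

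With 50 bases after the start added, the windows of 300 bases were set against the 76321 pooled open intervals. An interval overlapped a window of 7647 of the 8495 genes (90.0%), and of 983 of the 1082 genes at least 2-fold higher in OPC-like cells with a window (90.9%), close to that background. Among the genes at least 2-fold lower, 791 of 1283 did (61.7%). Pdgfra, Olig2 and Cspg4 had an open window and Matn4 did not, and the other 3 genes of the rule had none in the table. Of the 14 other OPC markers with a window 11 were open, against 1 of 8 microglia genes. The chromatin came from GFP cells of normal cortex, so it describes those cells and not the tumour.

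The 15 genes with the largest ratios outside the rule included secretory and synaptic genes, matrix genes and a CDK inhibitor. Vgf, a secreted neuropeptide precursor, had 79.3 CPM in OPC-like cells and 12.5 CPM in all other cells (log2 ratio 2.67, 2.5 to 2.84). Resp18 and Syt4, genes of secretory vesicles, had 88.5 and 87.0 CPM in OPC-like cells, against 17.3 and 18.1 CPM in all other cells. Gpr17, the receptor of committed precursors, had 196 and 34.1 CPM (2.52). Lims2, an adaptor at integrin adhesions, had 103 and 19 CPM (2.44). Of the Lims2 UMIs 467 of 797, and of the Gpr17 UMIs 749 of 1517, lay in 121 members described below as a committed subset, and the remaining members had 49.1 CPM of Lims2 and 114 CPM of Gpr17. Cdkn2b, the CDK inhibitor p15, had 67.8 and 12.9 CPM (2.39, 2.22 to 2.57). Hmga2, a chromatin protein of fetal and tumour cells, had 147 and 31.8 CPM (2.21). Col11a1, a fibrillar collagen, had 521 and 112 CPM, and Tnr 263 and 59 CPM. The rest were Opcml, Rorb, Sema3d, Pak3, Nxph1 and Kcnk2, with log2 ratios of 2.14 to 2.34. The 15 smallest ratios all belonged to genes that were low in OPC-like cells and high in the C1q cells, among them Gpr34 (3.36 and 184 CPM), P2ry12 (7.49 and 263 CPM), Adgre1 (2.58 and 91.6 CPM) and the chemokine Ccl3 (7.75 and 356 CPM). The C1q sum was part of the rule, so their place follows from it.

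Gene groups of OPC biology, which share some genes with the marker lists, were also higher in OPC-like cells. Of 13 matrix proteoglycan and adhesion genes compared out of 16 listed, 12 were at least 2-fold higher (median 1.69). With Vcan, Tnr, Ptprz1 and Cspg5 set aside as listed OPC markers, 8 of 9 were (median 1.64). They included the brain proteoglycans Bcan (169 and 55.5 CPM) and Ncan (176 and 46 CPM) and the adhesion protein Cntn1 (342 and 110 CPM). Of 12 ion channel and neurotransmitter receptor genes compared, 10 were (median 1.64), among them the AMPA receptor subunits Gria2 (391 and 98.6 CPM) and Gria3 (75.2 and 21.1 CPM) and the metabotropic receptor Grm5 (161 and 42.3 CPM). Receptor tyrosine kinases were mixed, with 6 of 12 higher and 1 lower once Pdgfra of the rule was set aside. Ntrk3, a neurotrophin receptor, had 66.5 and 17.1 CPM, and Axl, a receptor that phagocytes use, was the lower one with 18.1 and 44.9 CPM. Of 14 target and feedback genes of the ERK pathway 7 were higher (median 1.04), with Spry2, a brake on receptor signalling, at 50 and 14.8 CPM and Dusp6, an ERK phosphatase, at 53.6 and 93.4 CPM.

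Genes of cholesterol synthesis, which myelinating cells and their precursors need, were higher for 11 of 16 (median 1.12), with Hmgcs1 at 127 and 49.2 CPM. Of 21 glial transcription factors outside the rule 11 were higher and 1 lower (median 1.11), with Sox8, a partner of Sox10, at 93.8 and 22 CPM. CDK inhibitors and cyclins moved unequally, with 5 of 15 higher and 1 lower (median 0.46). Cdkn2a, which encodes p16 and p19ARF, had 261 CPM in OPC-like cells and 71.8 CPM in all other cells. The cyclin Ccnd1 had 1323 and 498 CPM, and Cdk6, its kinase partner, 2.97 and 21.8 CPM. Interferon response genes were lower for 11 of 16 and higher for none (median -1.27), and genes of the mesenchymal glioma state lower for 9 of 15 and higher for 2 (median -1.51). S100a10 had 440 and 184 CPM, and Spp1, the osteopontin gene that macrophages also express, 106 and 3213 CPM. In the C1q cells Spp1 had 5258 CPM. These lists are set against narrower sets of cells below.

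**Figure D1:**
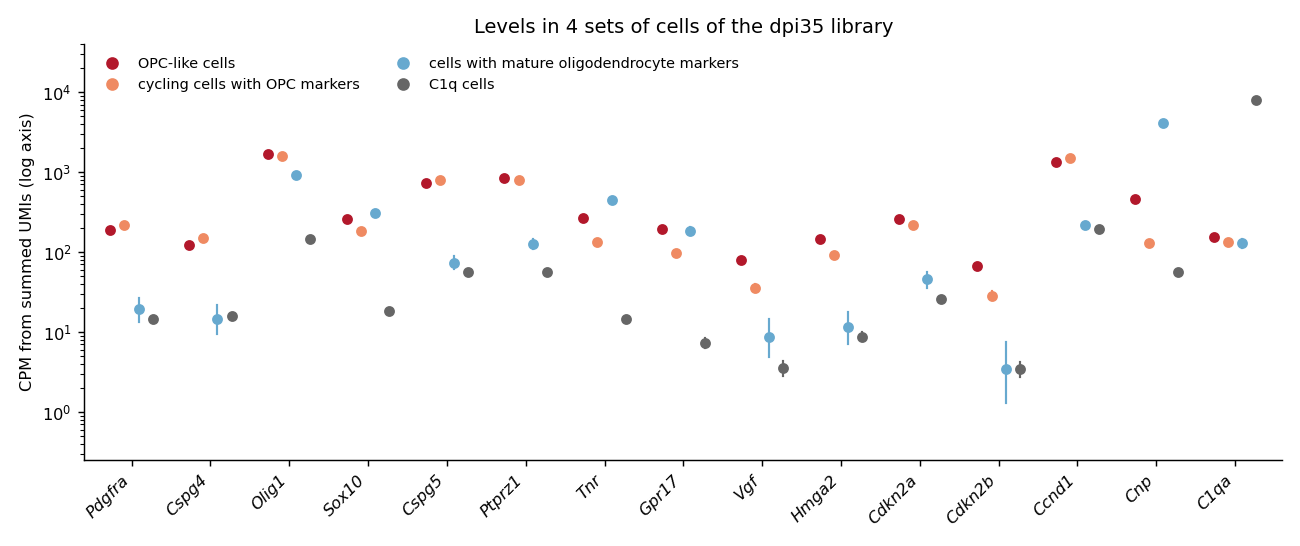
Levels of 15 genes in 4 sets of dpi35 cells, in CPM of summed UMIs on a log axis, with lines for the 95% counting interval. Pdgfra lies near 200 CPM in OPC-like and cycling OPC-marker cells (186 and 220), while Cnp is highest in the mature oligodendrocyte set.

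The plot of levels by set gives OPC-like cells beside 1031 cycling cells with OPC markers, 167 cells with mature oligodendrocyte markers and 2776 C1q cells. Of the genes plotted, Vgf, Cdkn2b, Gpr17 and Cnp differed by at least 2-fold between OPC-like and cycling cells, and all but C1qa were lower in the C1q set than in OPC-like cells.

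The C1q cells were 2776 of the 4833 other cells, so OPC-like cells were also set against the 2057 other cells with a low C1q sum. That set contains all 1031 cycling cells with OPC markers, which hold 8772996 of its 17471119 UMIs. Against these 2057 cells, 85 of 9506 genes were at least 2-fold higher (0.894%) and 938 at least 2-fold lower (9.87%), with a median of 0.00. Of the 85, 82 were among the 1483 named above. Vgf had 79.3 CPM in OPC-like cells and 25.9 CPM in these cells (log2 ratio 1.62, 1.44 to 1.79), Cdkn2b 67.8 and 27.1 CPM (1.33, 1.14 to 1.51), and Hmga2 147 and 66.1 CPM (1.16, 1.04 to 1.28). Gpr17 stood at 1.41 and Opcml at 1.24. Without the 121 members of the committed subset, Gpr17 had 114 CPM against 74 CPM in these cells (0.63) and Opcml 206 against 116 CPM (0.83), both within 2-fold. Pdgfra had 186 and 116 CPM, a log2 ratio of 0.69. All 20 other OPC markers lay above 0 but only 5 were past 2-fold (median 0.82). Of the matrix genes 1 of 13 was past 2-fold, of the channel and receptor genes none of 12, although 11 lay above 0. The receptor tyrosine kinases outside the rule had a median of 0.03 and the CDK inhibitors and cyclins one of -0.16. Of the cholesterol genes 0 of 15 were past 2-fold (median 0.27). Of the glial transcription factors outside the rule 0 of 21 were past 2-fold higher and 3 lower (0.14). Of the ERK target genes 1 of 14 was higher (0.31). Interferon genes were lower for 5 of 15 (-0.69) and mesenchymal glioma genes for 7 of 15 (-0.84), with none higher. The count of genes past 2-fold higher thus depended on whether C1q cells were among those compared.

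The genes lower than in the low-C1q cells marked the other cell types of that set. All 10 endothelial markers (median -3.15), all 8 ependymal and choroid plexus markers (median -3.39) and all 18 genes of G2 and M phases outside the rule (median -3.54) were at least 2-fold lower. Of 8 myelin genes outside the rule 3 were lower (median -0.20). Apod, a lipid carrier of mature oligodendrocytes, had 49.0 and 1346 CPM, Trf, the transferrin gene of the same cells, 36.6 and 654 CPM, and Ttr, which the choroid plexus secretes, 22.6 and 422 CPM. Hmmr, a spindle gene, had 2.33 and 77.6 CPM.

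**Figure D2:**
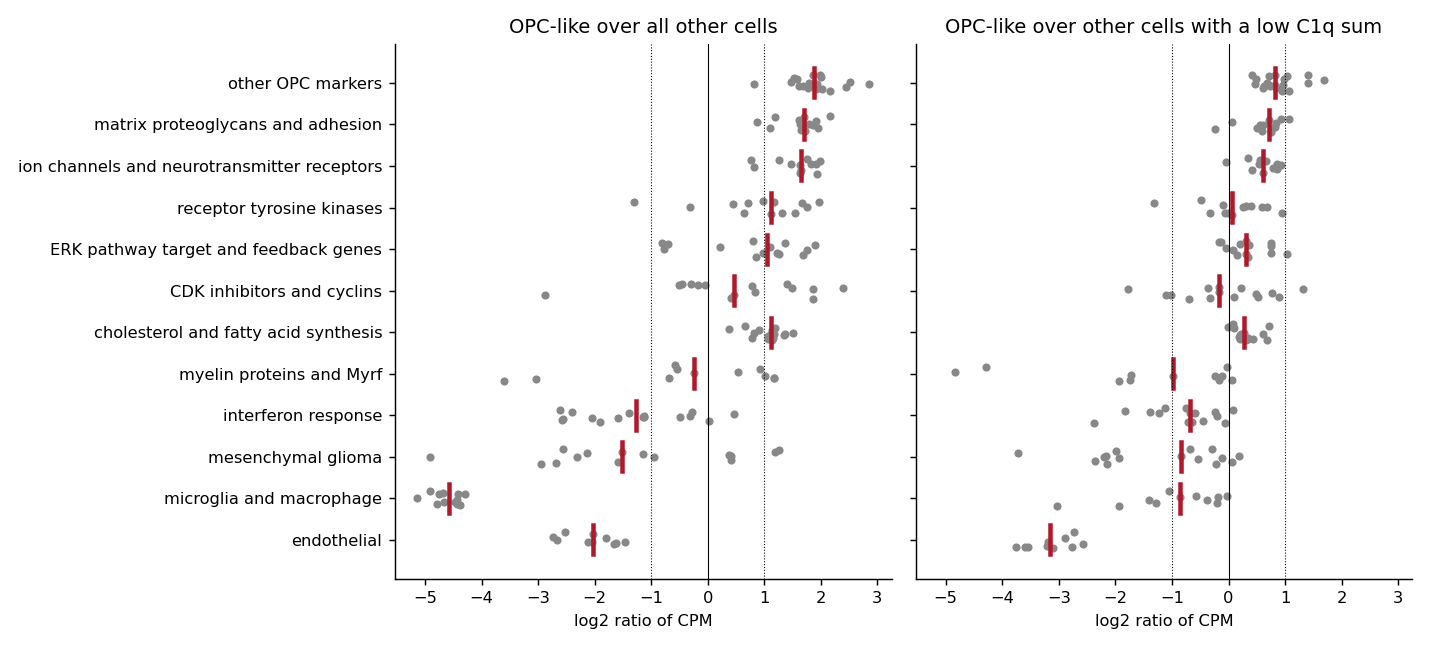
Log2 ratios of the genes of 12 lists in OPC-like cells over all other cells (left) and over other low-C1q cells (right), each point a gene, red bars medians and dotted lines 2-fold. The other OPC markers have a median of 1.88 on the left and 0.82 on the right.

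In the plot of gene lists, the microglia list lies far below 0 on the left (median -4.57). The medians of the OPC, matrix and channel lists are above 0 in both panels and nearer to 0 on the right.

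Cycling cells with OPC markers met the other conditions but had 3 or more cycling genes. The OPC-like cells had a median of 5530 UMIs and the 1031 cycling cells one of 7040. Of 7726 genes compared, 81 were at least 2-fold higher in OPC-like cells (1.05%) and 296 at least 2-fold lower (3.83%), with a median of -0.03. None of the 7 OPC genes of the rule was past 2-fold (median 0.12), with Pdgfra at 186 and 220 CPM and Olig2 at 372 and 466 CPM. Cell cycle genes outside the rule were lower, as the limit on cycling genes fixed. All 18 genes of G2 and M phases were (median -4.36), with Cdc20, an activator of the anaphase complex, at 9.82 and 202 CPM. Of 15 S phase genes 9 were past 2-fold lower (median -1.15). Rrm2, a subunit of ribonucleotide reductase, was at 22.4 and 124 CPM and the clamp gene Pcna at 76.9 and 172 CPM. All 9 interferon genes compared lay above 0 (median 0.32), and the 11 mesenchymal glioma genes had a median of 0.07. The 15 cholesterol genes had a median of 0.03, and no gene of these lists was past 2-fold.

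The CDK inhibitors differed in direction between these sets, and Cdkn1c was high in few cells. Cdkn2b had 67.8 CPM in OPC-like cells and 28.5 CPM in cycling cells (log2 ratio 1.25, 1.03 to 1.47), and Cdkn1c, the p57 inhibitor that accompanies the exit of OPCs from the cycle, 68.3 and 13 CPM (2.39). Of the Cdkn1c UMIs 460 of 529 lay in the 121 cells of the committed subset, and the remaining members had 10.3 CPM (-0.34). The cycling side kept its 38 cells that reached the line of that subset, so this ratio is between unlike sets. Without the committed subset Cdkn2b was at 77.2 CPM (1.44) in OPC-like cells. Cdkn2c and Cdkn2d, the p18 and p19 inhibitors, were lower, with 50.9 and 177 CPM (-1.80) and with 37.0 and 108 CPM (-1.55). Cdkn2a had 261 and 221 CPM (0.24, 0.15 to 0.33), and Ccnd1 1323 and 1496 CPM (-0.18), both within 2-fold.

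Among the genes highest against cycling cells were several of early oligodendrocytes. Cnp had 457 CPM in OPC-like cells and 129 CPM in cycling cells (1.83), Sirt2, a deacetylase of myelin, 605 and 178 CPM (1.77), and Gpr17 196 and 97.6 CPM (1.01). Of 10 committed precursor genes compared, 7 were past 2-fold higher (median 1.27). The highest genes also held Pdcd4 (1.66), a translation inhibitor, the heat shock genes Hspb1 (1.49) and Hspa1a (1.48), the nuclear RNA Neat1 (1.38) and the calcium-binding protein gene S100b (1.28). The ratios of the oligodendrocyte genes rested on a minority of the members. The 121 cells described next were then left out of the OPC-like side only, and 38 cycling cells past the same line stayed in. Cnp then had a log2 ratio of 0.09, Sirt2 one of 0.03, Gpr17 one of 0.23, Rnd2 one of -0.36, Tubb4a one of -0.43 and Chn2 one of -0.17. Ratios below 0 thus stand between unlike sets. Hspb1 (1.47), Hspa1a (1.16) and Neat1 (1.05) were still past 2-fold. Then 25 genes were past 2-fold higher, 19 of them among the 81. Hypoxia and glycolysis genes lay above 0 for all 14 compared (median 0.60), but 1 was past 2-fold, Vegfa, the vascular growth factor, with 27 and 13 CPM.

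Within the OPC-like cells, genes of committed oligodendrocyte precursors split off a small subset. Of a list of 12 such genes (Bmp4, Enpp6, Bcas1, Fyn, Tmem163, Tcf7l2, Itpr2, Sirt2, Gpr17, Rras2, Nkx2-2 and Cnksr3), the number with at least 2 UMIs per cell had a main peak at 1 gene, with 401 cells, a low point at 5, with 19 cells, and a second rise to 32 cells at 8. A line at 5 or more was drawn after these values were seen. It gave 121 cells (9.91%, 8.29 to 11.7%). Of the 1031 cycling cells 38 reached it (3.69%), and of the 2776 C1q cells 9 (0.324%). The committed subset had a median of 7965 UMIs, against 5394.5 in the 1100 remaining cells. At 2 mature oligodendrocyte genes, the most that the rule admits, stood 65 of the 121 (53.7%), against 35 of the 1100 (3.18%), so the upper limit of the rule cuts through this subset.

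**Figure D3:**
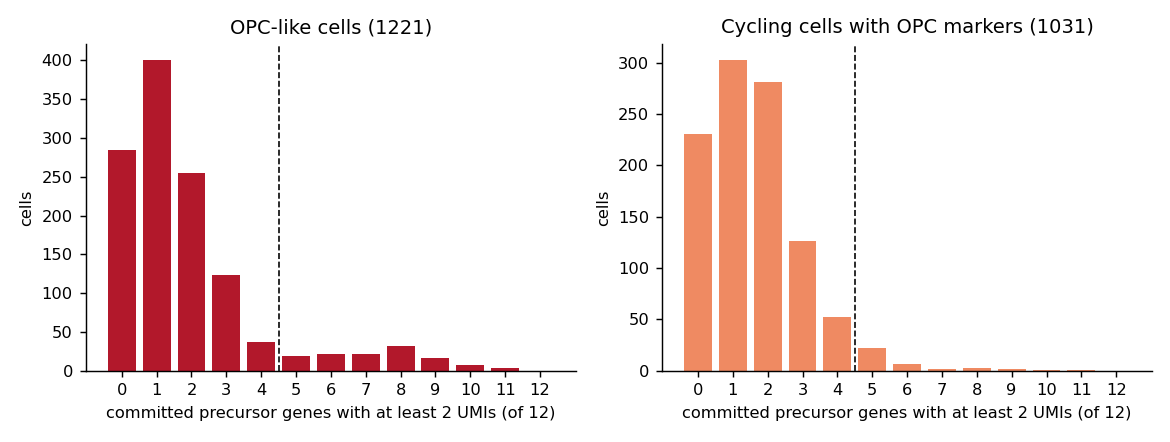
Number of the 12 committed precursor genes with at least 2 UMIs, in 1221 OPC-like cells and 1031 cycling cells with OPC markers, as cells per bar, with a dashed line at 5. OPC-like cells have a second rise, of 32 cells at 8 genes, to the right of the line.

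The histogram of committed precursor genes counts UMIs without thinning, so deeper cells reach more genes.

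The committed subset combined genes of differentiating oligodendrocytes with low levels of the receptor and of cyclins. Of 4873 genes compared with the remaining OPC-like cells, 336 were at least 2-fold higher (6.90%) and 473 at least 2-fold lower (9.71%), with a median of -0.03. The 12 listed genes chose the subset, and Enpp6, a choline phosphodiesterase (349 CPM in the committed subset and 1.19 CPM in the remaining cells), Bmp4 (295 and 2.23 CPM) and Tmem163 (272 and 9.23 CPM) are given as description. Outside the list, Cdkn1c had 451 and 10.3 CPM (log2 ratio 5.46, 5.09 to 5.84), Bfsp2 316 and 5.80 CPM, Rnd2 908 and 41.1 CPM, the tubulin gene Tubb4a 1319 and 65.9 CPM and Cnp 2567 and 137 CPM. Of 6 myelin genes compared 5 were higher (median 2.72). Lims2 (458 and 49.1 CPM), Tnr (887 and 168 CPM; 2.40, 2.27 to 2.52) and Sox10 (432 and 229 CPM; 0.92) were higher too, Sox10 within 2-fold. Pdgfa, the ligand of Pdgfra, had 146 and 29.8 CPM.

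The receptor side ran the other way. Pdgfra had 40.2 CPM in the committed subset and 208 CPM in the remaining cells (-2.37, -2.86 to -1.93), Cspg4 24.5 and 138 CPM (-2.49) and Cspg5 102 and 818 CPM (-3.00). Of 13 ERK target and feedback genes compared 12 were at least 2-fold lower and none was higher (median -2.12). Spry2 had 7.84 and 56.4 CPM, the ETS factor Etv4 6.86 and 57.9 CPM, Dusp6 10.8 and 60.1 CPM and Phlda1 125 and 542 CPM. The cyclins Ccnd1 (341 and 1472 CPM) and Ccnd2 (161 and 717 CPM) were lower as well. Of 9 radial glia genes compared 6 were lower and 1 higher (median -2.07). Vim, an intermediate filament gene, had 163 and 712 CPM, and the Notch target Hes1 5.88 and 64.6 CPM. The higher one was Cd9, a tetraspanin also used by oligodendrocytes, with 4720 and 1322 CPM. The other OPC markers split. With Gpr17 and Nkx2-2 of the 12 listed genes set aside, 3 of 16 were higher and 9 lower (median -1.3).

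Of the CDK inhibitors, Cdkn2b had 5.88 CPM in the committed subset and 77.2 CPM in the remaining cells (-3.71, -5.17 to -2.58), while Cdkn2a had 142 and 279 CPM (-0.97, -1.23 to -0.73). Hmga2 had 13.7 and 168 CPM (-3.61), Rorb, a nuclear receptor, 5.88 and 78.7 CPM, and Igfbp2, a binding protein for insulin-like growth factors, 30.4 and 278 CPM. Cdkn2b and Hmga2 thus lay mostly in the remaining cells, and Cdkn2a was less unequal.

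Shares of cells after thinning to 2000 UMIs gave the same order. Enpp6 was found in 41.3% of the committed subset and 0.273% of the remaining cells, and Cdkn1c in 43% and 1.91%. Gpr17 was found in 71.9% and 17.2%, against 1.05% in C1q cells, which should lack it. Pdgfra was found in 8.26% and 34.2%, against 2.34% in C1q cells. Hmga2 was found in 1.65% and 22.4%, and C1q cells had 1.37%, so its share in the committed subset lay near that background. Cdkn2a was found in 22.3% and 37.0%, against 5.04% in C1q cells.

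**Figure D4:**
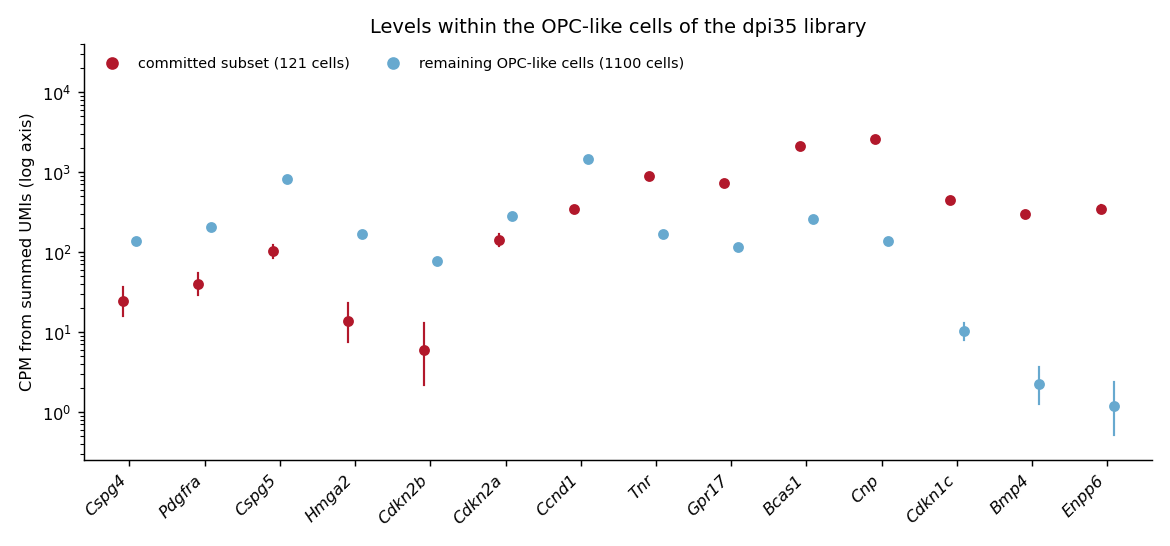
Levels of 14 genes in the 121 cells of the committed subset and the 1100 remaining OPC-like cells, in CPM on a log axis, with lines for the 95% counting interval. Cnp and Cdkn1c are higher in the committed subset and Pdgfra, Hmga2 and Cdkn2b lower.

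In the plot of the committed subset, the intervals of Cdkn2b and Hmga2 are wide there because 6 and 14 UMIs were counted.

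Some variation among the members came from a few cells with RNA of other types. At least 3 markers of microglia, endothelium, pericytes, ependyma, T cells or red blood cells with 2 or more UMIs each were present in 54 members (4.42%). Of members with 3 OPC genes these were 8.40%, of members with 6 OPC genes 1.36%, and of the 101 members with all 7 OPC genes 7.92%. Ctla2a, a gene of endothelial cells, had the second-highest ratio of variance to mean at 2000 UMIs, 32.1, with a UMI in 2.13% of cells. Of its 1011 UMIs in OPC-like cells, 93.0% lay in 12 cells and 92.6% in the 54 cells. For Cldn5, Mgp and Hbb-bs, a haemoglobin gene, at least 92.8% of UMIs lay in 12 cells, and most members had no UMI of them. Ctla2a, Cldn5 and Mgp were among the 15 lowest in the committed subset, of which 5 of 121 cells had such markers. In contrast, 3.56% of the Cdkn2a UMIs, 6.10% of the Cdkn2b UMIs and 4.44% of the Pdgfra UMIs lay in the 54 cells. Of 12 listed microglia markers, summed, OPC-like cells had 553 CPM and all other cells 13282 CPM, and for the endothelial list the sums were 203 and 807 CPM. The sums were 38.1 and 77.4 CPM for pericytes and fibroblasts, 65.8 and 421 CPM for ependyma and choroid plexus, 683 and 771 CPM for red blood cells and 8.53 and 2.62 CPM for T and NK cells, with no UMI for 4 genes of the last list. Astrocyte and neuron lists, which were not among those that defined the 54 cells, were higher in OPC-like cells than in all other cells. The sums were 1148 and 643 CPM for astrocytes and 1515 and 432 CPM for neurons. Cycling cells with OPC markers had 1003 CPM of the astrocyte list and 1237 CPM of the neuron list. Against the low-C1q cells, 0 of 12 astrocyte genes were past 2-fold higher and 3 lower (median 0.10). The neuron list had a median of 0.63 there.

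Also among the 15 most variable genes were Malat1, a nuclear RNA (variance over mean 46.4), Igfbp7 (17.3) and the myelin gene Mbp (11.0). Lower in that ranking were Tuba1a (9.78), Sparc (9.63), the heat shock gene Hspa1a (7.93) and the metallothionein gene Mt1 (7.73). The median over 2571 genes was 1.06. Hspa1a was found in 4.42% of the cells, while Mt1 was found in 72.1%. Of the 15 leading genes 11 were also leading at 4000 UMIs. The part of dissociation or cell quality in these values was not tested.

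By sex-linked RNA the library was mixed. Xist UMIs and no Y-linked UMI were found in 1542 cells, and the reverse in 2184. Of the cells with Xist only 26.3% were OPC-like (24.1 to 28.6%), against 18.2% of the cells with Y-linked genes only (16.6 to 19.9%). Among the OPC-like cells of each kind, 17% of 406 and 7.56% of 397 belonged to the committed subset. The labels do not say how many animals were pooled, and 91 members had both kinds of UMI. None of the genes with the 15 largest or smallest ratios reversed within either kind in the comparisons of the dpi35 library.

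Across libraries, OPC-like cells at dpi35 were set beside the dpi25 cells and the cortex cells of the same conditions. Age, tumour, capture method, depth and gene annotation all differ between libraries and cannot be told apart from one another. Against dpi25, 855 of 8281 genes were at least 2-fold higher (10.3%) and 1515 at least 2-fold lower (18.3%), with a median of -0.25. Against cortex, 1007 of 8334 were higher (12.1%) and 1662 lower (19.9%), with a median of -0.25. A TMM factor moved all log2 ratios up by 0.42 against dpi25 and by 0.47 against cortex, and higher genes then made up 67.5% and 69.2% of those past 2-fold, against 36.1% and 37.7% without it. Directions of small ratios depend on that scaling.

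Both tumour libraries had UMIs of the CDK inhibitor locus in OPC-like cells, and the cortex cells had none. Cdkn2a had 261 CPM at dpi35, 113 CPM at dpi25 and no UMI in the cortex cells, where 3 UMIs would be 1.48 CPM. With that floor of 3 UMIs the log2 ratio of dpi35 over cortex was 7.46, and its interval began at 7.16. Cdkn2b had 67.8 CPM at dpi35, 189 CPM at dpi25 and no UMI in cortex, a log2 ratio of 5.52 over cortex with the same floor. At 2000 UMIs, Cdkn2a was found in 35.5% of dpi35 cells and 19.4% of dpi25 cells, and in 0 of 481 cortex cells. Among those 481 cells, 3 cells would be a share of 0.624%. Hmga2 had 147 CPM at dpi35, 142 CPM at dpi25 and 12.8 CPM in cortex, and the interval of its log2 ratio between the tumour libraries included 0 (0.05, -0.13 to 0.24).

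The OPC genes themselves were not uniformly different. Sox10 stood at 255, 260 and 260 CPM at dpi35, dpi25 and in cortex, and Olig1 at 1698, 1472 and 1939 CPM. Pdgfra was lower at dpi35, with 186 CPM, than at dpi25 with 428 CPM (log2 ratio -1.2, -1.32 to -1.08) and in cortex with 402 CPM (-1.11, -1.24 to -0.99), and the cortex cells were sorted by a Pdgfra reporter. Cspg4 had 123, 302 and 242 CPM in the same order. These genes chose the cells in each library, so their levels are a description.

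**Figure D5:**
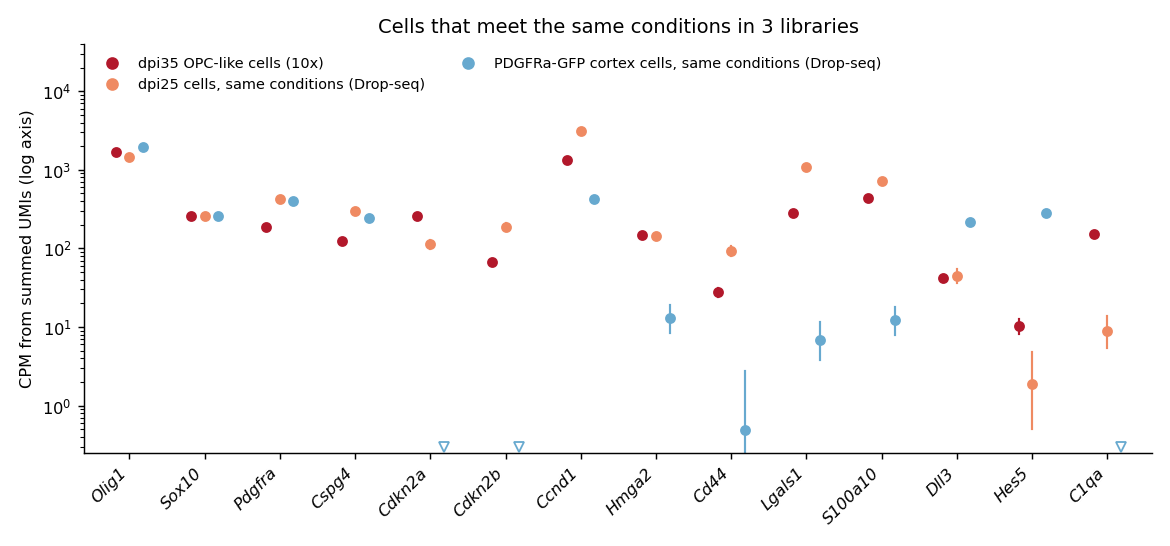
Levels of 14 genes in OPC-like cells at dpi35 and in cells of the same conditions at dpi25 and in PDGFRa-GFP cortex, in CPM on a log axis, with lines for the 95% counting interval and open triangles for 0 UMIs. Cdkn2a and Cdkn2b have no UMI in cortex, where Hes5 is highest (285 CPM).

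The plot of the libraries shows Sox10 and Olig1 close together in all of them and the other genes apart.

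Of 19 other OPC markers compared with dpi25, 8 were higher at dpi35 and 1 lower (median 0.91). Tnr had 263 CPM at dpi35, 17.7 CPM at dpi25 and 41.5 CPM in cortex, Xylt1 198, 3.26 and 17.3 CPM, and Gpr17 196, 41 and 243 CPM. Genes of differentiation were higher at dpi35 than at dpi25, with 6 of 10 committed precursor genes (median 1.78) and 6 of 9 myelin genes (median 2.27) and none lower. With every cell thinned to 2000 UMIs before the conditions were applied, these medians were 0.95 and 1.25. The committed subset held 121 of 1221 cells at dpi35 and 5 of 993 shallower cells at dpi25. With it left out on both sides, and without thinning, the medians were 0.14 and 0.13. The committed precursor genes chose the subset at 2 or more UMIs, which shallow cells reach less often. Part of the fall of their median therefore follows from that choice. In the remaining cells Enpp6 had 1.19 CPM at dpi35 and 9.86 CPM at dpi25, Bcas1 262 and 359 CPM, and Cnp 137 and 138 CPM. Gpr17 then had 114 CPM at dpi35 and 38.5 CPM at dpi25 (1.57). Against cortex, 1 of 10 committed precursor genes was higher (median -0.02). Bmp4 had 40.8, 6.53 and 51.8 CPM at dpi35, dpi25 and in cortex.

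Cell cycle genes were lower at dpi35 than at dpi25. Of 15 S phase genes 11 were lower and none higher (median -1.33), and all 10 genes of G2 and M phases compared were lower. Ccnd1 had 1323 CPM at dpi35, 3108 CPM at dpi25 and 430 CPM in cortex. Of 14 ERK target and feedback genes 4 were lower and none higher, with 6 above 0 and a median of -0.23 close to the -0.25 of all genes, and Spry2 had 50, 213 and 88.8 CPM. Of 15 hypoxia and glycolysis genes 4 were lower, beside 18.3% of all genes, with a median of -0.69 and Vegfa at 27, 124 and 16.3 CPM. With a TMM factor the hypoxia median was -0.27. Depth moved with the cell cycle genes, with a median of 5530 UMIs at dpi35, 1983 at dpi25 and 2649.5 in cortex, and the detection of cycling genes was part of the rule. After thinning to 2000 UMIs, the S phase median was -0.84 and the median of G2 and M phases -2.22.

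Against cortex, the mesenchymal glioma list stood out in its counts, with 11 of 11 compared genes higher at dpi35 (median 4.59, against -0.25 for all genes). Lgals1, a galectin, had 284 CPM at dpi35, 1076 CPM at dpi25 and 6.91 CPM in cortex, and S100a10 440, 732 and 12.3 CPM. Cd44, the hyaluronan receptor, had 27.6, 93.7 and 0.494 CPM, the last from 1 UMI. Gfap, the astrocyte filament gene, had 269, 17.7 and 0.987 CPM, and Vgf 79.3, 153 and 0.987 CPM. Of 14 hypoxia and glycolysis genes 9 were higher and 1 lower than in cortex (median 1.48), and of 9 interferon genes 7 were higher and 1 lower (median 1.53).

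Genes of early progenitors were lower at dpi35 than in cortex. Of 10 genes of primitive OPCs 6 were lower and 2 higher (median -1.51), and all 8 Notch pathway genes lay below 0, 3 of them past 2-fold (median -0.76, or -0.29 with a TMM factor). Hes5, a Notch effector, had 10.2 CPM at dpi35, 1.87 CPM at dpi25 and 285 CPM in cortex, and the ligand Dll3 41.7, 44.3 and 217 CPM. Gria2 had 391, 635 and 1247 CPM, and Sox11, a factor of immature neural cells, went against the list, with 216, 7.00 and 9.87 CPM. Cholesterol genes were lower for 6 of 15 and higher for 2 (median -0.80).

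Markers of other cell types moved with both comparisons. All 9 microglia markers compared were higher at dpi35 than in cortex, and 8 of 9 higher than at dpi25, with C1qa at 154 CPM at dpi35, 8.86 CPM at dpi25 and no UMI in cortex. All 5 and all 6 endothelial markers compared were higher as well. Cldn5 had 94.7, 1.87 and 0.494 CPM. With the cells that had at least 3 markers of another type left out on both sides, the median against cortex was 1.41 for the interferon list and 4.87 for the mesenchymal list. It was still 5.1 for the microglia list, and the part of that remaining RNA was not tested. The lowest genes of both comparisons were largely genes with a near-identical or overlapping copy, such as Pcna-ps2, Pgk1-rs7, Gstp2 and Hist1h2ao, whose reads the annotations may assign differently, and Gapdh, with 1709 CPM at dpi35 and 90.5 CPM at dpi25, stood at the other end.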

How the data were processed

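Whole UMI counts per gene and cell of the dpi35 library were deposited by the authors from Cell Ranger on mm10, and for both Drop-seq libraries the authors deposited a signal of UMIs scaled to 10000 per cell after STAR, per the submitters' processing notes. That signal came out as whole UMIs within 0.1 after division by the step of each cell. The labels give 6796 cells for dpi25, and 4955 were in the table. For ATAC-seq the authors deposited 1 pooled peak list with a fold ratio per peak, made with Bowtie2, HOMER and MACS2 2.12 per the submitters' processing notes, which list the builds mm10 and rn5. The libraries held 51194749 (dpi35), 11544233 (dpi25) and 8166699 (cortex) UMIs.

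UMIs were summed per set and given as CPM, with log2 ratios and exact conditional 95% intervals. Shares have Clopper-Pearson intervals. A gene was compared with at least 200 summed UMIs within the library and 100 across libraries. A set with no UMI was given a floor of 3 UMIs per set. Cells were thinned to 2000 UMIs with a fixed seed. Named genes are the 15 largest and 15 smallest ratios with at least 50 CPM in the higher set, with genes of the rule, predicted genes, and genes of mitochondria, ribosomal proteins, haemoglobin, Xist and the Y chromosome set aside. Also named are the 15 highest ratios of variance to mean among genes with a mean of at least 0.1 UMI, members of the 36 lists and genes of the rule. A list is given by its counts and median. A gene that would be named in this way is not reported here and was left out of its list. The members and the lists were chosen with earlier results of these data known. An open window overlapped an interval by 1 base or more. Scrublet was run in scanpy 1.11.5. Other tools were Python 3.11.15, numpy 2.4.6, scipy 1.17.1, pandas 2.3.3, matplotlib 3.10.9 and, for TMM factors as an alternative, edgeR 4.0.16 in R 4.3.3. The ratio script was tested on simulated data.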

Additional observations from a re-analysis of the deposited data

How the results depend on the processing

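Every set rests on 1 library, so counting error is all that the intervals cover, and the depth of 2000 UMIs used for shares limits what can be detected. No paired analysis was possible because each group had 1 sample and nothing was tested. Alternatives on Xist-only and Y-only cells, cells with markers of another type, the committed subset and the 150-base overlap were chosen after seeing the data. Of the counts and shares, 62 stayed within 1.5 times or within their interval and 34 moved. Of the list medians, 773 were within their spread, 85 moved and 3 reversed. Of the named genes, 775 kept their side of 2-fold, 16 came below it in the same direction and 5 reversed. The causes were not tested.

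The share of OPC-like cells was 16% with 4 OPC genes required, 15.3% after thinning, 26.3% in Xist-only cells and 18.2% in Y-only cells. Against all other cells, low-C1q cells as the other side gave 85 higher, 938 lower and 4 lists past 2-fold. TMM gave 949 higher, a minimum of 20 UMIs gave 2383 higher and 2751 lower, Xist-only cells gave 598 and 945, and Y-only cells gave 980 higher. Against cycling cells, leaving out the committed subset gave 25 higher, Xist-only cells 139 lower and 5 lists, and Y-only cells 44 higher, 157 lower and 1 list. For the committed subset, a line at 4 genes gave 273 lower and 5 lists, Xist-only cells 140 higher and 131 lower, and Y-only cells 120 higher and 188 lower. Against dpi25, thinning gave 400 higher and 808 lower and TMM 1504 and 725. Against cortex, thinning gave 421 and 751 and TMM 1743 and 774. Of the 15 lowest and the 15 highest genes, 11 each had a window. With 150 bases of overlap, 0 of these 11 lowest were open, against 2 with 1 base. Of the 11 highest 7 were open, against 10 with 1 base. Of the 14 other OPC markers with a window 8 were, against 11. Of all genes compared, 7149 of 8495 were open with 150 bases, against 7647 with 1 base.

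Without the committed subset, the committed precursor list reversed to -0.31 against all other cells, and Rnd2 (-0.36), Chn2 (-0.17) and Tubb4a (-0.43) against cycling cells. In both cases the cells past the line were left out of the OPC-like side only. With a line at 4 genes, the endothelial list (0.82), the interferon list (0.23), Cldn5 (0.82) and Gng11 (0.67) reversed between the committed subset and the remaining cells.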
